A study of Mus musculus with 12 samples.

Results

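Estradiol treatment of the mammary gland of mice without Ccnd1, the gene of cyclin D1, was measured in 6 of the 12 arrays of the study: the 3 arrays of Ccnd1-/- glands on estradiol (labelled E2) and the 3 of Ccnd1-/- glands on placebo (labelled Vehicle), chosen by those labels. All mice of the study were virgin, of C57BL/6 background, and had had their ovaries removed. Pellets with placebo or with 0.72 mg of estradiol, made for release over 60 days, were in place for 7 days before the animals were killed. Total RNA was extracted with Trizol and each array carried the biotin-labelled RNA of 1 separate mouse. The remaining 6 arrays hold the same treatments in Ccnd1+/+ (wildtype) mice, 3 per group, and serve here for comparison. The labels give neither the age of the mice, nor how the Ccnd1 allele was made, nor the position of the gland on the body, nor what was done with the lymph node inside it. The whole gland was profiled, so the arrays do not separate a response of the epithelium from that of its surroundings.

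Estradiol acts through estrogen receptors, which bind DNA and turn target genes on or off, and in the mammary gland the receptor is found in part of the luminal epithelium and in stromal cells. Epithelial cells with the receptor respond by making factors such as amphiregulin that drive their neighbours to divide, and by making the progesterone receptor. Cyclin D1 binds CDK4 and CDK6, kinases that move cells from G1 into S phase, is itself raised by estrogen in mammary cells, and can also bind the estrogen receptor.

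Values are log2 intensities, 1 probe set per gene for 18193 genes, and a difference of 1 is a doubling in intensity. The median gene lay between 6.97 and 7.20 in the 12 arrays, and the 6 knockout arrays correlated with each other at 0.944 to 0.993 across genes. Ccnd1 itself was at 7.68, 7.52 and 7.48 on placebo and at 7.55, 7.44 and 7.24 on estradiol in the knockout, below every wildtype array (8.50 to 10.8, exact two-sided permutation p = 0.00216 for 6 against 6). Its probe sets need not lie in the deleted part of the gene, so a remaining signal was possible. Markers of fat and connective tissue were bright in all 6 knockout arrays: 16 of 16 adipocyte and 23 of 24 fibroblast genes lay above the array median, against 3 of 21 luminal and 7 of 18 basal epithelial genes. Placebo array 2 and estradiol array 1 stood apart from the other 4: they had low levels of T and B cell genes (mean of the log2 values centred over the 12 arrays, -2.01 and -2.19 against 0.33 to 1.90) and high levels of skeletal muscle genes (1.97 and 1.90 against -2.82 to -1.04). Among the wildtype arrays, placebo array 3 and estradiol arrays 1 and 3 were also poor in T and B cell genes. In whole-tissue RNA, fewer cells of a type and less RNA per cell cannot be told apart.

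Estradiol changed few genes past the test in the knockout gland, and nearly all of them upward. At an adjusted p under 0.05 (limma, Benjamini-Hochberg over all genes), 18 of 18193 genes (0.0989%) were called, 17 of them higher (0.0934%) and 1 lower (0.0055%) on estradiol. Without adjustment, 1053 genes (5.79%) were higher and 460 (2.53%) lower at p under 0.05, 8.32% of all genes together. The 3 estradiol and 3 placebo arrays did not overlap for 13.5% of genes, 8.37% higher and 5.09% lower. Differences over 1 log2 unit, whether called or not, were found upward in 176 and downward in 106 genes, and over 3 units in 6 genes, all upward. The same contrast in the wildtype called 342 genes (1.88%), 333 higher (1.83%) and 9 lower (0.0495%). Leaving out a wildtype placebo array made this 107 (array 1), 100 (array 2) or 1146 genes (array 3), and leaving out estradiol array 3 made it 153. The median standard error of a difference was 0.177 in both genotypes. Leaving out single arrays gave 10 to 25 called genes in the knockout: 10 without wildtype estradiol array 1, knockout placebo array 1 or knockout placebo array 2, and 11 without wildtype placebo array 2 or knockout estradiol array 1. With both arrays poor in lymphocyte genes left out, 9 genes were called, 8 of them among the 18.

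**Figure D1:**
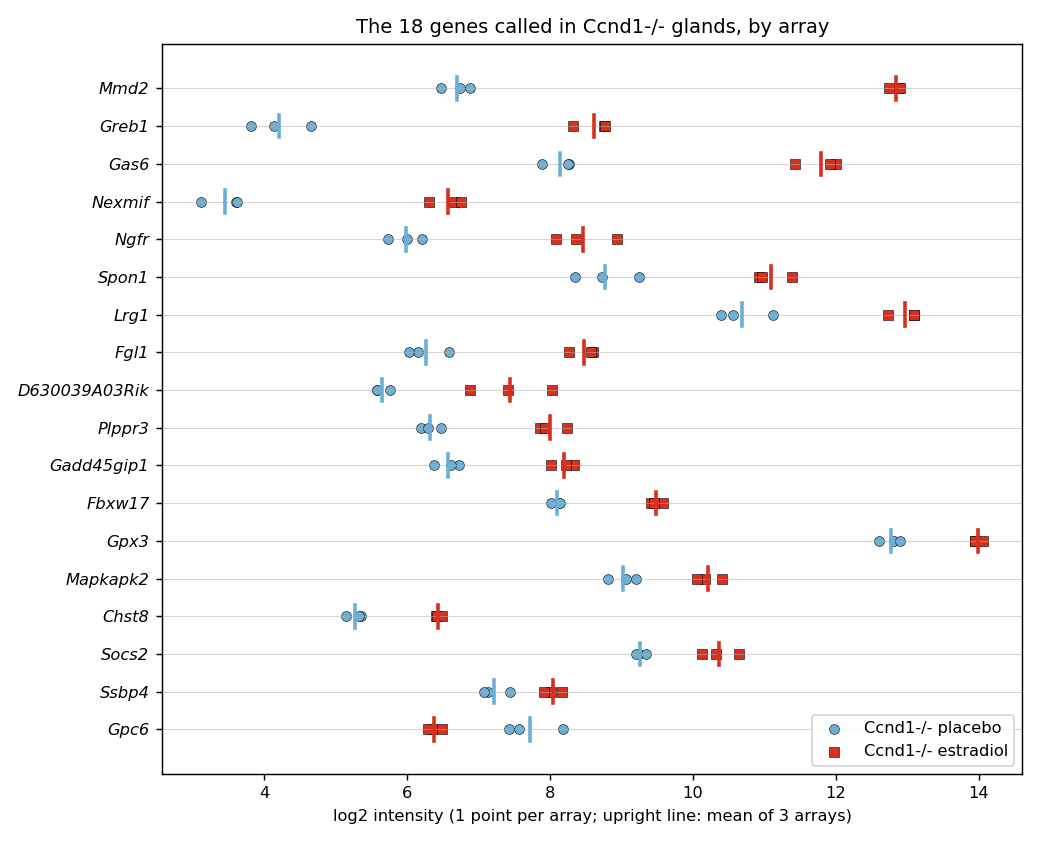
Log2 intensity of the 18 genes called between estradiol and placebo in the knockout gland, 1 row per gene. Each of the 6 knockout arrays is a point and each group mean an upright line. In every row the 3 knockout estradiol arrays lie clear of the 3 knockout placebo arrays. They lie above them in 17 genes and below them in Gpc6.

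Mmd2, Gas6, Greb1 and Nexmif had the smallest p-values. Mmd2, which belongs to the progestin and adipoQ receptor family of membrane proteins, was at 6.88, 6.47 and 6.73 in the 3 placebo arrays and at 12.89, 12.75 and 12.89 in the 3 estradiol arrays. It lay below the median gene on placebo and far above it on estradiol in every array. Its difference was 6.15 ± 0.14 (SE, 3 against 3 arrays, adjusted p 1.61e-08), a 70.8-fold rise, beside 6.44 in the wildtype. The other Mmd2 probe sets differed by 5.33 and 0.61 in the knockout. Greb1, a textbook target gene of the estrogen receptor that encodes a nuclear protein, was at 4.14, 4.64 and 3.82 on placebo and at 8.76, 8.77 and 8.32 on estradiol. All its placebo values lay under the lower quartile of genes on their arrays, so the rise of 4.41 ± 0.27 (adjusted p 7.76e-05, 21.3-fold) started from a dim signal. In the wildtype the rise was 5.83, from 3.40 to 3.98 on placebo to 9.25 to 10.05 on estradiol. The 3 other Greb1 probe sets differed by 3.07, 0.79 and 0.16 in the knockout. Nexmif, an X-linked gene needed for neurite growth, went from 3.11, 3.60 and 3.61 to 6.66, 6.75 and 6.30, a rise of 3.12 ± 0.24 (adjusted p 0.000509). It too was below the lower quartile in every placebo array, and its 3 other probe sets differed by 0.35 to 0.82.

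The Greb1 promoter windows are shown here because this gene is the best known estrogen receptor target among the called genes. Gas6 and Lrg1, secreted products described next, are set beside it. Each sequence runs 5′ to 3′ on the gene's strand, here always the minus strand, from 250 bases before to 50 bases after the transcription start (RefSeq, GRCm38.p6). Capitals mark the half-site of the estrogen response element, GGTCA, or its reverse TGACC. The windows lie at chr12:16800837-16801136 and chr12:16757190-16757489 (2 Greb1 starts), chr8:13494486-13494785 (Gas6) and chr17:56121897-56122196 (Lrg1).
Greb1, first window: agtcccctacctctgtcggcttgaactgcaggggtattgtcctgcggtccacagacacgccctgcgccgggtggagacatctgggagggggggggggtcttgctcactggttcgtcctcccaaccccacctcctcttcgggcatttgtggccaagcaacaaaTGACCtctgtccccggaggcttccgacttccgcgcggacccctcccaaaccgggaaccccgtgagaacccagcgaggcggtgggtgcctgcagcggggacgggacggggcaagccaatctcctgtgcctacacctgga
Greb1, second window: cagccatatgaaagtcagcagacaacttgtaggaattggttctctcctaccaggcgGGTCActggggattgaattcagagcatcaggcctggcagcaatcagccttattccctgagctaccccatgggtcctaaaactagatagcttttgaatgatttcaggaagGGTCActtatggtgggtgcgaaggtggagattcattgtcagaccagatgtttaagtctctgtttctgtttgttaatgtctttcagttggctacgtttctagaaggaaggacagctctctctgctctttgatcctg
Gas6: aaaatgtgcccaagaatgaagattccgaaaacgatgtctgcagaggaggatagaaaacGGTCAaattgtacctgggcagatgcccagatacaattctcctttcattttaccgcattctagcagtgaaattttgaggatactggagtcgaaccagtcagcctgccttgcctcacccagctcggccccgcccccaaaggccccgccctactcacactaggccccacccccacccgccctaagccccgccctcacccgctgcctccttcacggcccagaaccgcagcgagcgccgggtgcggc
Lrg1: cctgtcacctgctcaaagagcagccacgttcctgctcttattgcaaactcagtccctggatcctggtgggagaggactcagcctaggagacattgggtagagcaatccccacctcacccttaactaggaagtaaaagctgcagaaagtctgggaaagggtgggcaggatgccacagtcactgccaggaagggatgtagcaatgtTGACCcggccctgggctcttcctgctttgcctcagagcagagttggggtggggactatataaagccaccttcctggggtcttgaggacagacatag

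The second Greb1 window holds 2 half-sites, which begin at positions -194 and -85 counted from the transcription start, and the other windows hold 1 each, at -88 in the first Greb1 window, -192 in Gas6 and -46 in Lrg1. Of the 18 called genes 13 had a promoter in the table, with 14 windows; Gpc6, Socs2, Gadd45gip1, Spon1 and Fgl1 had none there. A half-site on either strand was found in 7 of the 14 windows, of 6 genes, against 40.5% of all 32851 windows. The windows printed above are all among those with a half-site. Those of Mmd2, Nexmif, Gpx3, Ngfr, Chst8, Mapkapk2 and Ssbp4 held none. The full element, GGTCA and TGACC with any 3 bases between them, was in 0 of the 14 windows and in 23 (0.07%) of all. A match describes the letters of these 300 bases and is no evidence of binding.

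Secreted and matrix proteins come next: Gas6, Lrg1, Fgl1, Spon1 and Gpx3. Gas6, the ligand of the receptor kinases TYRO3, AXL and MERTK, was at 8.26, 8.25 and 7.89 on placebo and at 11.43, 12.01 and 11.92 on estradiol. The groups were over 3 units apart, and the rise of 3.65 ± 0.22 (adjusted p 7.76e-05, 12.6-fold) stood beside 3.90 in the wildtype. The other, dimmer Gas6 probe set differed by 0.32 in the knockout, with groups that overlapped, and by 0.37 in the wildtype. Gas6 was the called member of the 5 measured genes of this ligand and receptor group, where 0.0989% of all genes were called. Lrg1, a leucine-rich glycoprotein of the acute phase, was at 11.12, 10.56 and 10.39 on placebo and at 13.09, 13.09 and 12.72 on estradiol, a rise of 2.28 ± 0.22 (adjusted p 0.00239, 4.85-fold). Fgl1, a fibrinogen-like protein best known from liver, went from 6.15, 6.59 and 6.03 to 8.60, 8.26 and 8.56. Its rise of 2.22 ± 0.18 (adjusted p 0.000837) stood beside 1.18 in the wildtype, where estradiol arrays reached 7.02 to 7.62, and the difference between genotypes was not called. Lrg1 and Fgl1 were the called members of 21 measured genes of acute-phase proteins, where 0.0989% of all genes were called. The list's median was 0.14, with 12 of 21 above 0. All gene lists were chosen with earlier results of these data known, so a called member does not describe its list.

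Spon1, a matrix protein, was at 9.24, 8.72 and 8.34 on placebo and at 10.92, 11.39 and 10.96 on estradiol. All 4 of its probe sets had groups that did not overlap, and the one used rose by 2.32 ± 0.31 (adjusted p 0.026), beside 3.67 in the wildtype. Gpx3, the secreted glutathione peroxidase, was bright throughout, at 12.82, 12.60 and 12.90 on placebo and at 13.94, 13.95 and 14.06 on estradiol. Its rise of 1.21 ± 0.12 (adjusted p 0.00239) had the smallest standard error of the 18. Among receptors, Ngfr, the low-affinity receptor for nerve growth factors, went from 5.99, 6.21 and 5.73 to 8.94, 8.36 and 8.08. It rose by 2.48 ± 0.32 (adjusted p 0.026), beside 3.72 in the wildtype. Its other probe sets differed by 0.67 and 0.10 in the knockout, the last with groups that overlapped. Ngfr was the called member of 8 measured genes of neurotrophin signalling and of 8 Schwann cell and nerve genes, where 0.0989% of all genes were called. The medians of these lists were 0.16 and -0.21.

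The remaining genes that rose did so by 1.79 or less on the log2 scale. Socs2, an inhibitor of growth hormone and STAT5 signalling that is known to be raised by estrogen, was at 9.25, 9.34 and 9.20 on placebo and at 10.32, 10.65 and 10.12 on estradiol. It rose by 1.10 ± 0.15 (adjusted p 0.0345); its 6 probe sets ranged from -0.095 to 1.10. Mapkapk2, a kinase downstream of p38, went from 9.20, 8.80 and 9.07 to 10.40, 10.16 and 10.05, a rise of 1.18 ± 0.17. Fbxw17, an F-box protein, rose by 1.39 ± 0.14 (adjusted p 0.00425), from 8.01 to 8.14 on placebo to 9.40 to 9.58 on estradiol. Plppr3, a phospholipid phosphatase-related membrane protein, rose by 1.68 ± 0.16 (adjusted p 0.0027), from 6.19 to 6.47 to 7.85 to 8.23. For each of these 4 genes the lowest estradiol array lay above the highest placebo array by more than the range within either group.

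Chst8, a sulfotransferase that modifies glycoprotein hormones, rose by 1.16 ± 0.15 (adjusted p 0.0269), with placebo arrays at 5.14 to 5.35 and estradiol arrays at 6.40 to 6.48. D630039A03Rik rose by 1.79 ± 0.25 (adjusted p 0.0345), with estradiol arrays spread from 6.87 to 8.02. Ssbp4, of a family of single-stranded DNA-binding proteins, had the smallest rise of the 18, 0.82 ± 0.12 (adjusted p 0.044). Gadd45gip1, a protein of the mitochondrial ribosome, was at 6.37, 6.72 and 6.62 on placebo and at 8.33, 8.01 and 8.23 on estradiol. Its rise of 1.62 ± 0.19 (adjusted p 0.0124) rests on 1 probe set, since its other one differed by -0.19, and the wildtype difference was 0.59 and not called.

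The gene that fell was Gpc6, a glypican, that is a heparan sulfate proteoglycan held on the cell surface that binds growth factors. It was at 7.43, 8.18 and 7.56 on placebo and at 6.34, 6.48 and 6.28 on estradiol. Placebo array 2 was the highest, the estradiol arrays were close together, and the groups were nearly a unit apart. Gpc6 fell by 1.35 on the log2 scale (SE 0.20, adjusted p 0.0489), to 0.392 of the placebo level, beside -0.39 in the wildtype, where it was not called. All 5 of its probe sets were below 0, from -1.35 to -0.28. It was the called member of 10 glypican and syndecan genes, where 0.0989% of all genes were called. Its call was the least firm: with the 12 arrays left out in turn it was called in 1 of 12 fits, as was Ssbp4.

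Over the 18 genes, the direction was the same in the wildtype for all, 16 were also called there, and 11 had the smaller response in the knockout. The test of the difference between the genotypes called 0 of the 18 in limma's fit, and 7 had an unadjusted p under 0.05 in it, with 6.43% of all genes below that. Of these 7, Greb1, Fbxw17, Ngfr and Spon1 had the smaller response in the knockout, and Fgl1, Gadd45gip1 and Gpc6 the larger. The 18 were chosen for their knockout values, which also enter this test, so the 7 are a description. In all 12 fits with 1 array left out, 9 genes were called: Mmd2, Greb1, Gas6, Nexmif, Fgl1, Lrg1, Gpx3, Plppr3 and Fbxw17. The others were called in 1 to 8 of the 12.

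**Figure D2:**
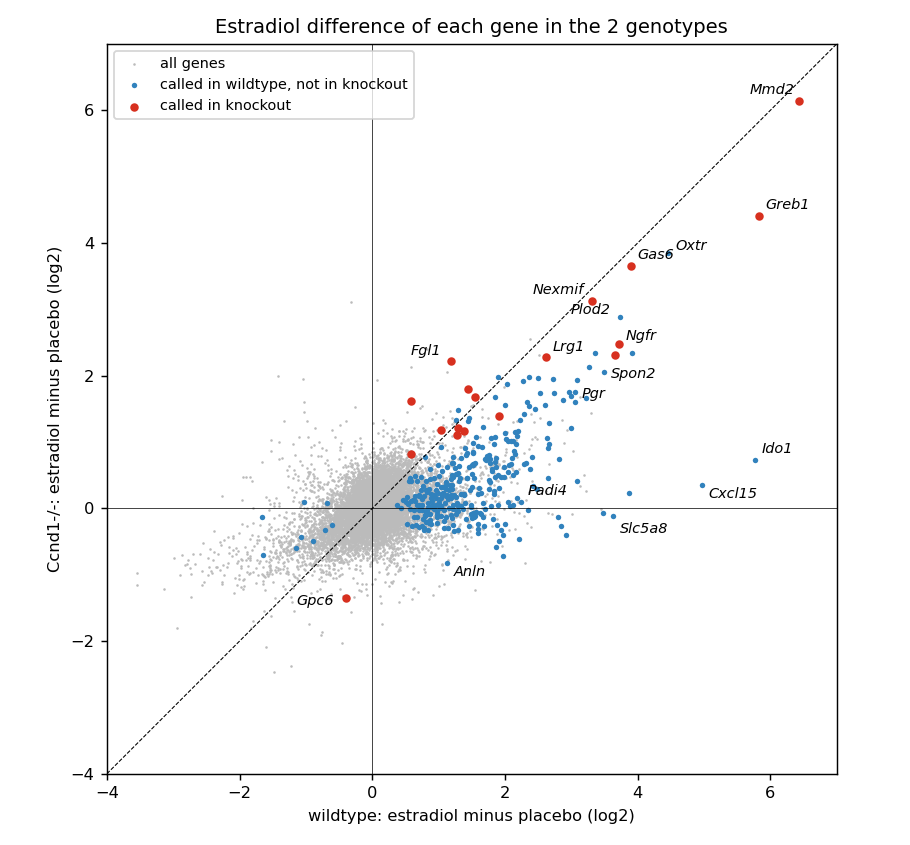
Estradiol minus placebo difference (log2) of each gene in the wildtype (horizontal axis) and in the knockout (vertical axis), with called and named genes marked. Mmd2, Greb1, Gas6, Oxtr and Nexmif lie far up in both genotypes, while Ido1, Cxcl15 and Slc5a8 lie far to the right and near 0 on the vertical axis. The dashed line marks equal differences.

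Just outside the threshold, 12 genes had an adjusted p between 0.05 and 0.10, 11 of them higher on estradiol and 9 called in the wildtype. Oxtr, the receptor for oxytocin, through which myoepithelial cells contract at milk let-down, was at 7.62, 9.22 and 7.04 on placebo and at 11.61, 11.85 and 11.96 on estradiol. Estradiol arrays were alike while placebo array 2 was high, and the difference of 3.85 ± 0.65 had an adjusted p of 0.0995, beside 4.46 in the wildtype. Plod2, which hydroxylates lysines of collagen, was at 6.84, 6.81 and 6.10 on placebo and at 10.31, 9.77 and 8.30 on estradiol, a difference of 2.88 ± 0.50. Sned1, a matrix protein (1.98), Hpca, a calcium sensor (1.97), Chst13, a sulfotransferase (1.93), Nfil3, a transcription factor of the bZIP class (1.67, adjusted p 0.0586), Snai2, a transcription factor of basal epithelium and mesenchyme (1.22), and Prkag2, a subunit of AMP-activated kinase (0.70), were the best known of the remaining higher genes. Itpk1 (1.21), Lrrc41 (0.78) and Lrrc9 (1.49) complete them. Rbck1, a subunit of a ubiquitin ligase, came next, with a difference of 0.64 and an adjusted p of 0.115.

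On the lower side, Cobll1 had the smallest p of the genes not called, at 8.64, 8.61 and 8.34 on placebo and 7.73, 7.51 and 7.30 on estradiol (-1.02 ± 0.17, adjusted p 0.0996). Ano6, a channel and lipid scramblase, was at 11.26 to 11.32 on placebo and at 10.68 to 10.78 on estradiol, a small but tight difference of -0.56 that was 0.05 in the wildtype. Dact1, a regulator of Wnt signalling, differed by -1.10, and Cyp1b1, which hydroxylates estradiol, by -0.98. Hpgd, which inactivates prostaglandins, differed by -0.93. None of these passed the test. Armcx4 (-0.97), Dennd5b (-0.93), Colec11 (-0.86), Anln (-0.82), Lhfp (-0.75), Chn2 (-0.72) and Syvn1 (-0.57) were the other lower genes with groups that did not overlap and the smallest p. In the wildtype these 12 differed by -0.75 to 1.13, and 1 of them, Anln, was called there, as higher.

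By size alone, several genes with large differences did not pass the test. Aqp5, a water channel of glands, was at 5.06, 4.95 and 7.64 on placebo and at 8.24, 8.64 and 8.44 on estradiol (2.55 ± 0.63, adjusted p 0.307). Placebo array 3 was the high one, and without it the difference was 3.43 with an adjusted p of 0.0132. Aqp5 was called in 1 of the 12 fits with 1 array left out, where the difference went down to 2.09 and the adjusted p up to 0.794. Smtnl2 differed by 2.41 ± 0.81, with estradiol arrays from 7.31 to 10.48. Akr1cl, of the aldo-keto reductase family, differed by 2.35 ± 0.76, with estradiol arrays at 8.01, 10.13 and 8.10. Mup10, a urinary protein gene whose close paralogs may share probes, was at 4.71, 5.64 and 4.70 on placebo and at 7.10, 8.07 and 6.90 on estradiol (2.34, adjusted p 0.198). Spon2, a relative of Spon1, was at 5.81 to 6.44 and 7.72 to 8.89 (2.06, adjusted p 0.198), beside 3.49 in the wildtype.

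Among hormone receptors, none was called in the knockout. Pgr, the progesterone receptor and a classical estrogen target, was at 3.64, 4.03 and 5.15 on placebo and at 5.86, 5.88 and 5.90 on estradiol. The estradiol arrays were almost identical. All 6 values lay below the median gene of their arrays, and those of placebo arrays 1 and 2 under the lower quartile. The difference of 1.61 ± 0.34 had an adjusted p of 0.199. Without placebo array 3 it was 2.05, with an adjusted p of 0.0212. That was its 1 call in the 12 fits with 1 array left out, where the difference went down to 1.29 and the adjusted p up to 0.619. The other Pgr probe sets differed by 0.44 and -0.02 in the knockout. In the wildtype Pgr rose by 3.06, from 5.04 to 5.64 to 7.97 to 8.68, and the difference between genotypes of -1.45 ± 0.48 was not called (adjusted p 0.58). Esr1, the estrogen receptor alpha gene, was at 10.92 ± 0.68 on placebo and 10.42 ± 0.53 on estradiol (SD, n = 3), with a difference of -0.50 ± 0.39 and groups that overlapped. Esr2, the beta receptor, was at 4.59 to 4.91, with a difference of -0.0039. The other D-type cyclins, which can take the place of cyclin D1 with the same kinases, differed by -0.16 ± 0.27 (Ccnd2) and 0.03 ± 0.14 (Ccnd3). The sign of the Esr2 and Ccnd3 differences turned under quantile scaling, and that of Esr2 also under median scaling.

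Of 30 measured estrogen target genes known from mammary tissue or breast cancer cells, 2 were called higher, Greb1 and Socs2. None was called lower, and 0.0989% of all genes were called. The median was -0.10, beside 0.0055 over all genes, and 10 of 30 lay above 0, against 51.0% of all genes. In the wildtype 5 of the 30 were called higher. Lcn2, a secreted lipocalin (1.64), and Ccn5, a secreted protein of the CCN family (2.32), were the largest positive differences beside Greb1, with adjusted p of 0.512 and 0.338. Tff1, the trefoil factor of breast cancer cells, differed by -0.19, Myc by -0.02 and Ctsd, a lysosomal protease, by 0.26. Igf1, a growth factor of stroma and liver, was at 9.88, 11.40 and 9.71 on placebo and at 8.70, 8.89 and 9.18 on estradiol, with a difference of -1.41 ± 0.50 (adjusted p 0.506). The list of 14 paracrine mediators of hormone action held no called gene, with a median of 0.13; Rspo1, a secreted activator of Wnt signalling, differed most, from 4.75 ± 0.22 on placebo to 6.37 ± 0.93 on estradiol (SD, n = 3; difference 1.61, limma's adjusted p 0.307).

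No epithelial marker gene was called in the knockout, and the medians of both lists lay near 0. Of 21 luminal genes 0 were called, where 0.0989% of all genes were, so few calls are looked for in a list of this size. Groups that did not overlap were found in 0 of them, against 13.5% of all genes. The luminal median was -0.07, with 8 above 0 (-0.33 to 0.14 with single arrays left out). In the wildtype the median was 1.19. Summed as a mean of centred log2 values, the luminal genes were at -1.16, -1.04 and 0.09 in the knockout placebo arrays and at -0.64, -1.23 and -0.64 in the estradiol arrays, against 0.74, 2.20 and 1.34 on estradiol in the wildtype. Krt8 and Krt18, keratins of luminal cells, and Elf5, a transcription factor of the milk-forming lineage, had adjusted p of 0.915, 0.981 and 0.949 in the knockout. Of 18 basal and myoepithelial genes 0 were called, with a median of -0.15 (wildtype 1.27). Oxtr and Snai2, given above, were the basal genes that differed most, while Krt5 and Krt14, keratins of basal cells, had adjusted p of 0.994 and 0.989. Among 24 fibroblast and matrix genes 12 lay above 0 and the median was -0.0054, or 0.0033 under median scaling (wildtype 1.10). Pdgfra, a receptor of fibroblasts, was at 10.15, 10.52 and 9.91 on placebo and at 11.00, 10.85 and 10.93 on estradiol, a difference of 0.74 that was not called. The 15 milk protein genes had a median of 0.0017.

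**Figure D3:**
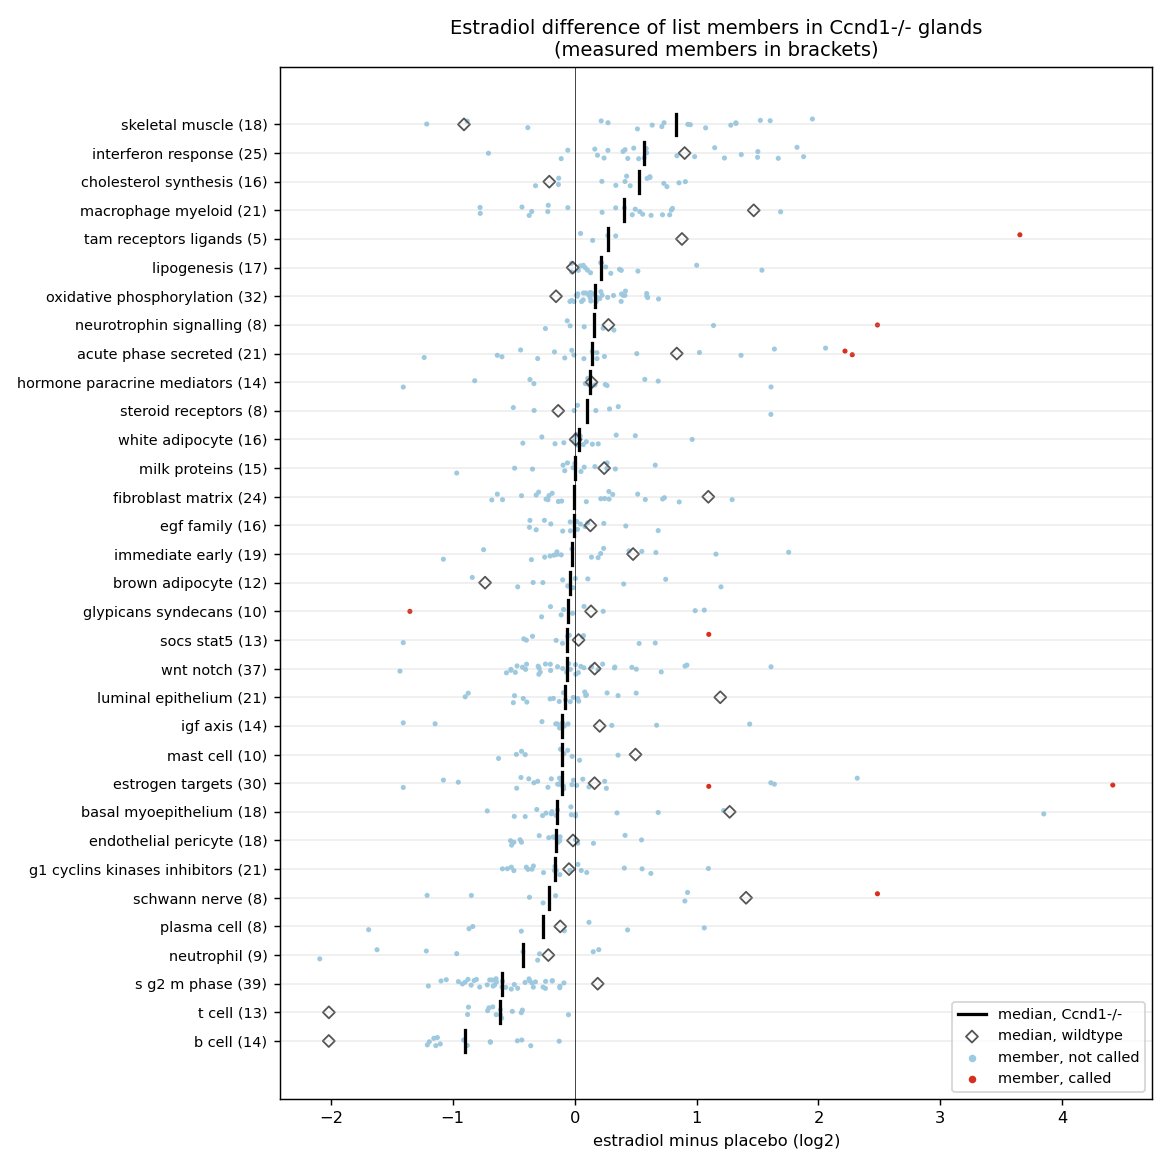
Estradiol minus placebo difference (log2) in the knockout of each measured member of the 33 gene lists (points, called members in red), with the list's median in the knockout (bar) and in the wildtype (diamond). The medians of luminal, basal and fibroblast genes lie near 0 in the knockout and above 1 in the wildtype, whereas the interferon-response median lies above 0 in both.

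Most interferon-response genes lay higher on estradiol in the knockout, though none was called. Of 25 measured genes 22 lay above 0 (51% of all genes did) and 15 had estradiol arrays all above the placebo arrays (8.37% of all genes did). An unadjusted p under 0.05 was found upward in 14 of the 25 (5.79% of all genes) and downward in 1 (2.53% of all genes). The median was 0.57, beside 0.90 in the wildtype, and it stayed above 0 under all 23 alternatives run, at 0.39 to 0.70 with single arrays left out. Irf7, a transcription factor of the interferon response, was at 8.40, 8.58 and 8.69 on placebo and at 11.24, 10.01 and 10.05 on estradiol (1.88 ± 0.39, adjusted p 0.199). Rtp4, which interferon induces, was at 9.80, 10.08 and 9.85 and at 11.71, 10.78 and 11.34 (1.37 ± 0.28, adjusted p 0.198). Ifit3 (1.82), Oasl2 (1.67), Oas1a (1.50), Ifit1 (1.50) and Bst2 (1.23) followed. Against the others, the chemokine gene Cxcl9 differed by -0.71 in the knockout and by -1.64 in the wildtype. Averaged over the list, estradiol array 1, which was poor in lymphocyte genes, stood highest at 0.70, with the other estradiol arrays at 0.08 and 0.12 and the placebo arrays at -0.50 to -0.33. The part of tissue makeup in this difference was not tested.

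Cell cycle genes that peak in S, G2 or M phase lay lower on estradiol in the knockout, and none was called. All 39 measured genes lay below 0, with a median of -0.59, against 0.19 in the wildtype, and 3 had estradiol arrays all below the placebo arrays (5.09% of all genes did). T cell genes (0 of 13 above 0, median -0.61) and B cell genes (0 of 14 above 0, median -0.90) lay on the same side. The T cell median went from -1.97 to 0.39 and the B cell median from -2.39 to 0.33 as single arrays were left out, so their direction rests on which arrays enter. Averaged over the list, the cell cycle genes were at 0.78, -0.75 and 0.97 on placebo and at -0.76, 0.32 and -0.29 on estradiol, and the lowest array of each group was the one poor in lymphocyte genes. The cell cycle median kept its sign over the same 12 fits, at -1.17 to -0.22, and was -0.32 with the lymphocyte score as a covariate. E2f3, a transcription factor of the G1 to S transition, was at 8.22, 8.37 and 8.31 on placebo and at 7.95, 7.83 and 7.62 on estradiol, a difference of -0.50 ± 0.13 (adjusted p 0.33). Ccne2, the gene of cyclin E2, which drives CDK2, differed by -0.52 at a dim signal, under the lower quartile of genes in all 6 arrays, and Cdkn2b, an inhibitor of CDK4 and CDK6, by 0.41. The list of 21 G1 cyclins, kinases and inhibitors had a median of -0.16 and no called member.

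**Figure D4:**
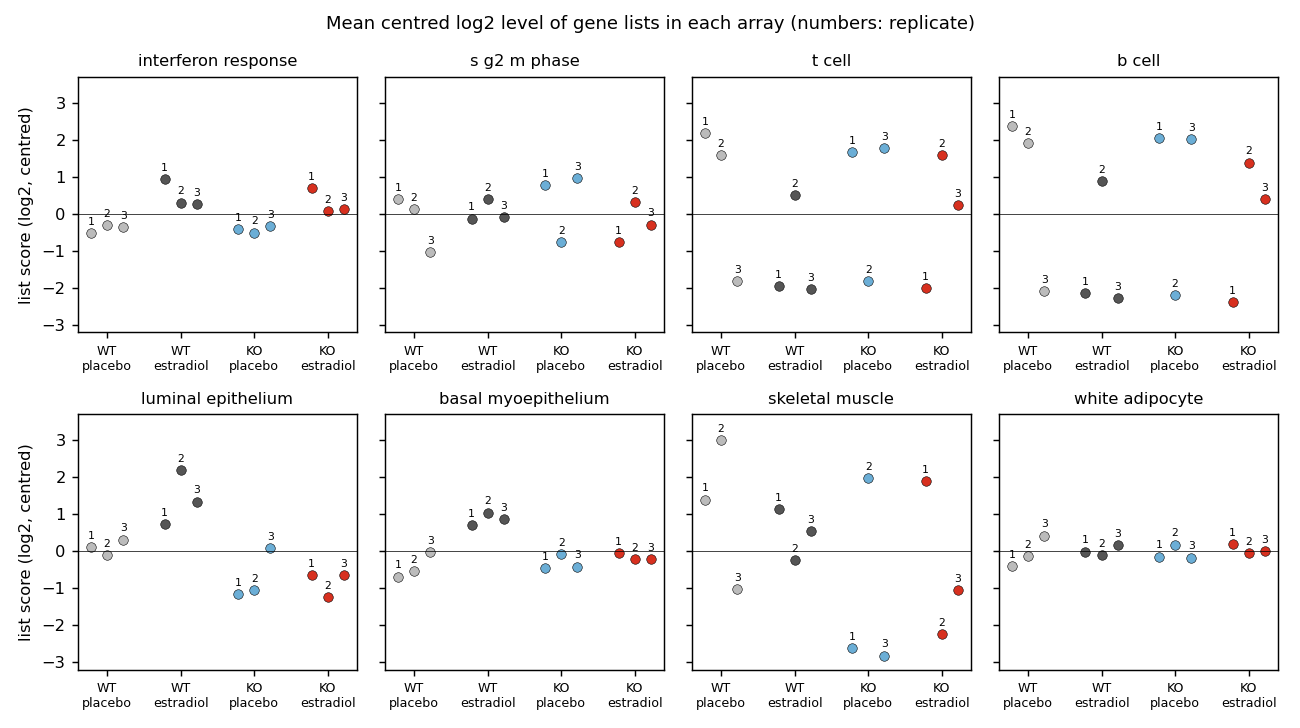
Mean of log2 values centred over the 12 arrays for selected gene lists, 1 point per array, numbered within its group. Knockout placebo array 2 and knockout estradiol array 1 lie low for lymphocyte genes and high for skeletal muscle genes, apart from the other 4 knockout arrays.

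Metabolic and other tissue genes held no called member. Of 16 cholesterol synthesis genes 13 lay above 0, with a median of 0.52 that was 0.12 without estradiol array 3. Mvk, mevalonate kinase, differed by 0.62 and Ebp, a sterol isomerase, by 0.43. Of 17 lipogenesis genes 15 lay above 0, and their median of 0.21 went from 0.031 without estradiol array 3 to 0.42 without placebo array 2. Mlxipl, a glucose-sensing transcription factor, was at 9.99, 10.48 and 9.53 on placebo and at 11.64, 10.71 and 12.25 on estradiol (1.54, adjusted p 0.356). Of 32 oxidative phosphorylation genes 29 lay above 0, with a median of 0.17 that was 0.022 without estradiol array 1 and 0.023 without placebo array 1. Slc2a4, the insulin-responsive glucose transporter, differed by 0.96 and the median of 16 white adipocyte genes was 0.03. Skeletal muscle genes had a median of 0.83 with 15 of 18 above 0, but it went from -0.58 to 2.29 as single arrays were left out. In no muscle gene did the groups stay apart, as they did for 13.5% of all genes. The muscle-rich arrays were placebo array 2 and estradiol array 1, and with both left out the medians were 0.76 for cholesterol synthesis, 0.46 for lipogenesis and 0.11 for oxidative phosphorylation.

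Myeloid genes were mixed. The median of 21 macrophage genes was 0.41, with 13 above 0, and it was 0.21 without placebo array 3. Fcgr1, an IgG receptor, was at 5.40, 6.11 and 5.04 on placebo and at 7.78, 7.11 and 6.74 on estradiol (1.69, adjusted p 0.435). Neutrophil genes had a median of -0.42, which went from -1.20 without placebo array 2 to -0.27 without estradiol array 2. Ngp, a granule protein, was at 8.95, 5.48 and 8.97 on placebo and at 5.01, 5.44 and 6.67 on estradiol, so that placebo array 2 lay with the estradiol arrays. Among immediate-early genes, Egr2, a zinc finger transcription factor, was at 8.42, 6.83 and 7.96 and at 9.97, 9.20 and 9.32 (1.76, adjusted p 0.354), and Ccn1, a matrix-associated protein, at 6.78, 6.19 and 6.99 and at 8.12, 7.77 and 7.55 (1.16, adjusted p 0.307). The list's median was -0.02. Axin2, a Wnt target gene, differed by 0.91, Stat5a by 0.66 and Igfbp3, which binds IGF1, by -1.14, and none was called. Sdc1, a syndecan, was at 8.30, 8.62 and 8.53 on placebo and at 9.07 or above on estradiol (difference 1.06), where the wildtype difference of 2.63 was called. The lists of brown adipocyte, endothelial and pericyte, plasma cell, mast cell, Wnt and Notch, IGF and EGF family genes held no called member either, and their medians lay between -0.26 and -0.0082.

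The genes that rose in the wildtype had on the whole smaller differences in the knockout. Over the 333 genes called higher in the wildtype the median difference was 1.39 there and 0.29 in the knockout, where 253 lay above 0 and 121 (36.3%) had estradiol arrays all above placebo arrays, against 8.37% of all genes, and 14 had them all below. These genes were chosen for their wildtype values, which pulls their wildtype median up, so the medians are a description. The test of the difference between the responses called 2 of 18193 genes (0.011%), Padi4 and Anln. Padi4, which converts arginine to citrulline in proteins, was at 4.56, 4.70 and 4.59 on placebo and at 4.85, 4.63 and 4.66 on estradiol in the knockout, while in the wildtype it went from 4.13 to 4.34 to 6.09 to 6.70. All its knockout and wildtype placebo values lay under the lower quartile of genes on their arrays. Its response was lower in the knockout by -2.14 (adjusted p 0.0378). Anln, an actin-binding protein of dividing cells, was at 6.68, 6.61 and 7.03 and at 6.18, 5.93 and 5.74 in the knockout, and went from 6.24 to 6.41 up to 7.29 to 7.67 in the wildtype, a difference between responses of -1.96 (adjusted p 0.0378). The other Anln probe set differed by -0.21 in the knockout, with groups that overlapped, and by 0.43 in the wildtype. The Padi4 and Anln calls held in 4 and 3 of the 12 fits with an array left out. Neither held with both lymphocyte-poor knockout arrays left out (adjusted p 0.127 and 0.053).

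Some larger gaps between genotypes were not called. Ido1, which breaks down tryptophan, was at 5.03, 4.40 and 5.16 on placebo and at 7.03, 4.50 and 5.24 on estradiol in the knockout, against 9.89, 11.98 and 10.50 on estradiol in the wildtype. Cxcl15, a chemokine gene of mucosal epithelia, was at 5.14, 5.29 and 5.86 and at 6.94, 5.17 and 5.24, against 10.22, 11.22 and 10.04. In both, knockout estradiol array 1 stood above the other knockout arrays and every wildtype estradiol array stood above it. The differences between responses were -5.04 (Ido1, adjusted p 0.194) and -4.61 (Cxcl15, adjusted p 0.126). Slc5a8, a transporter of short-chain fatty acids, Tmprss11a, a membrane protease, and Pate6 differed by -3.75, -3.64 and -3.54, each with an adjusted p of 0.194. Their knockout differences were -0.12, 0.23 and -0.06. These genes lay under the lower quartile of genes in every knockout and wildtype placebo array, so these differences rest on dim signals. Cxcl15 was called without knockout estradiol array 1 (adjusted p 0.0167) and with the lymphocyte covariate (0.0301). Without wildtype estradiol array 1 Tmprss11a (0.00564) and Slc5a8 (0.0458) were called, and without wildtype estradiol array 2 Pate6 was (0.0079). Each of these genes was called in 1 of the 12 fits with 1 array left out. In the other fits the adjusted p reached 0.445 for Cxcl15 and 0.504 for the rest. With both lymphocyte-poor knockout arrays left out none of them was called (adjusted p 0.053 to 0.573).

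**Figure D5:**
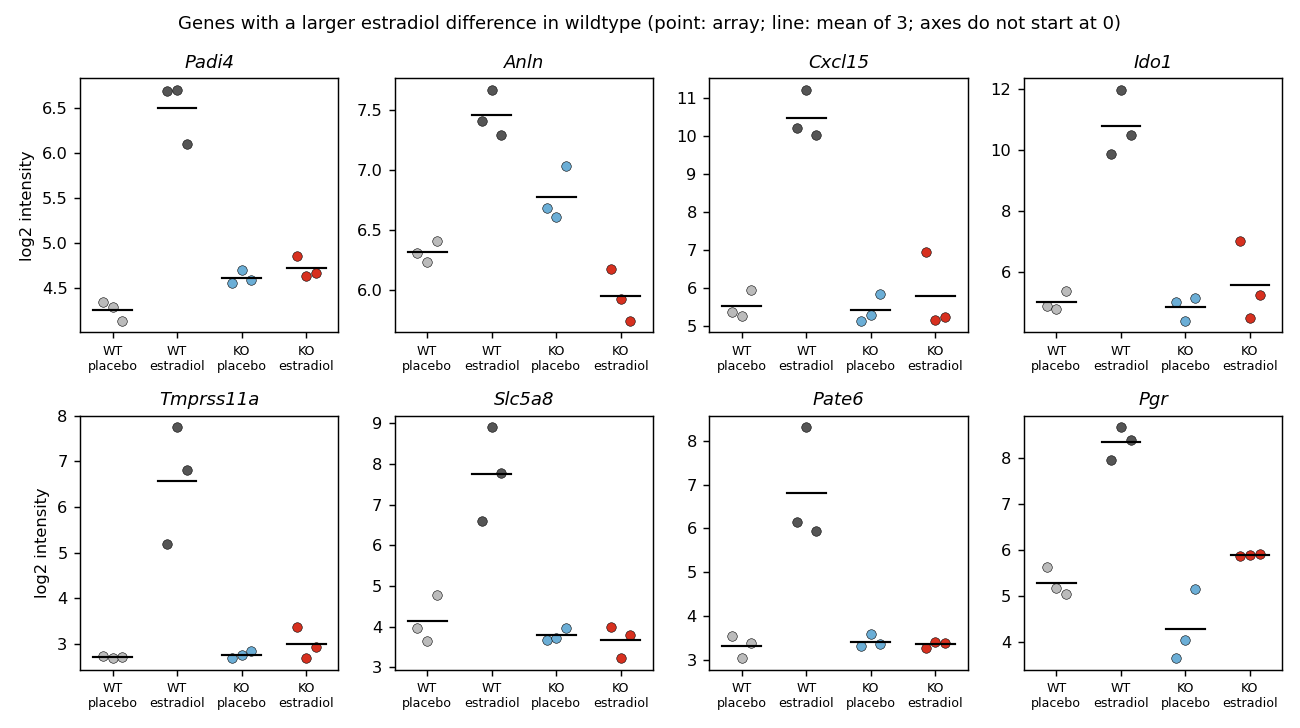
Log2 intensity in each of the 12 arrays of genes with a larger estradiol difference in the wildtype than in the knockout, with group means as bars. The knockout estradiol points lie among or near the knockout placebo points in Padi4, Slc5a8 and Pate6, below them in Anln and above them in Pgr, and array 1 stands up in Ido1 and Cxcl15.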

How the data were processed

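Total RNA of whole mammary glands was measured on 12 single-colour arrays, 4 groups of 3 taken from the labels. The authors deposited normalised log2 intensities of every probe set; RMA and limma 2.9.16 are named in the submitters' processing notes, and the chip definition version is not given in the sources used here. There were 45101 probe sets: 64 controls, 9160 without a gene, 932 with several genes and 34945 with a single gene. Where a gene had several (9010 of 18193 genes), the probe set brightest on average over the 12 arrays was used. RefSeq matched 18032 genes. RMA's quantile step makes array distributions alike, so levels are relative within an array, and the number of arrays limits the precision.

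One limma fit (3.58.1, R 4.3.3) of the 4 group means with eBayes (8 residual and 2.15 prior degrees of freedom) gave all contrasts, two-sided, with Benjamini-Hochberg adjustment over all genes and calls at an adjusted p under 0.05; it was tested on simulated data. Both genotypes share this estimate of the spread. Alternatives were other probe set rules, a filter on dim genes, scalings, priors, array weights, a replicate block, the 6 knockout arrays alone, thresholds, single arrays left out, both lymphocyte-poor knockout arrays left out, and a lymphocyte score as covariate.

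Named genes are Ccnd1 to Ccnd3, Esr1, Esr2, Pgr and Greb1, all called genes, the 12 higher and 12 lower uncalled genes with the smallest p and no overlap (clone names left out), up to 4 called members of each of 33 lists or else the 2 with the smallest p, genes called in the genotype difference, the 10 largest differences at an unadjusted p under 0.05 and the 10 largest wildtype calls not called in the knockout. Areg, also in the rule, has no probe set of its own here. List members chosen outside this rule are named as examples after their values were seen. The lists fixed 627 members, of which 570 were measured. The members and lists were chosen with earlier results of these data known. Python 3.11.15 with matplotlib 3.10.9 drew the figures.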

Additional observations from a re-analysis of the deposited data

Results flagged for a closer look

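The estradiol response differed between the genotypes, by the interaction term of the limma fit, for 2 genes. For Padi4 the knockout response minus the wildtype response was -2.138 (adjusted p 0.0378): the gene rose by 2.24 in the wildtype and differed by 0.10 in the knockout, and every wildtype estradiol array stood above every other array. For Anln it was -1.959 (adjusted p 0.0378): the gene rose by 1.13 in the wildtype and differed by -0.82 in the knockout, where it was not called. The other Anln probe set differed by -0.21 in the knockout and by 0.43 in the wildtype. With the lymphocyte score as a covariate both genes had an adjusted p of 0.0146. With both lymphocyte-poor knockout arrays left out neither was called (adjusted p 0.127 for Padi4 and 0.053 for Anln), and with single arrays left out Padi4 was called in 4 and Anln in 3 of 12 fits.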

How the results depend on the processing

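The 18 called genes kept their direction under every alternative run, and no other scaling moved the median of all genes by more than 0.03. The number called in the knockout was 73 with array weights (whose estimation stopped before it converged), 5 in a fit of the 6 knockout arrays alone, 9 and 30 at adjusted p under 0.01 and 0.10, 9 with both lymphocyte-poor arrays left out, 50 with the lymphocyte covariate and 10 to 25 with single arrays left out. The wildtype count of 342 was 186 with median scaling, 4702 with array weights, 71 in the fit of its 6 arrays, 94 and 715 at the same thresholds, 683 with the covariate and 100 to 1146 with single arrays left out. The number called between genotypes, 2 in the reported fit, was 0 with each probe set on its own, with the dim filter, with median scaling and at adjusted p under 0.01, 1 with trended robust priors, 84 with array weights, 4 at adjusted p under 0.10, 1 (neither Padi4 nor Anln) with both lymphocyte-poor arrays left out, 55 with the covariate and 0 to 18 with single arrays left out. The causes were not tested.

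The reported fit did not pair arrays by replicate number. Deviations of same-numbered arrays from their group means correlated at -0.639, -0.741 and 0.161 in the knockout and at -0.196, 0.202 and 0.413 in the wildtype. Tissue makeup also enters these deviations, so they cannot decide whether arrays of the same number belong together. With the replicate block 10 genes were called in the knockout, 158 in the wildtype and 0 between genotypes.

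Among 2580 values of the 104 named genes, 30 had the opposite sign, all in 12 genes not called. With all probe sets averaged Ccnd3 was -0.16 and Ebf2 0.0078; under quantile scaling Ccnd3 was -0.013 and Esr2 0.011; under median scaling Esr2 was 0.0047. Array weights gave Ccnd2 0.089, Esr2 0.081, Dio2 -0.058 and Pate6 0.0065. Without both lymphocyte-poor arrays Ccnd2 was 0.24, Esr1 0.095, Esr2 0.038, Dio2 -0.66, Tnnt1 0.0013, Ido1 -0.22, Cxcl15 -0.29 and Pate6 0.062, and with the covariate Pate6 was 0.016. With single arrays left out the ranges were -0.40 to 0.075 (Ccnd2), -0.052 to 0.085 (Ccnd3), -0.089 to 0.070 (Esr2), -0.20 to 2.41 (Dio2), -0.91 to 0.093 (Ebf2), -1.41 to 0.056 (Tnnt1), -1.97 to 0.063 (Cd28), -0.22 to 0.66 (Cxcl15), -0.28 to 0.10 (Slc5a8) and -0.12 to 0.023 (Pate6). The median of 21 of the 33 lists changed sign under at least 1 alternative. Greb1 and Nexmif lay under the lower quartile of genes on placebo, so their folds rest on dim signals. Padi4, Slc5a8, Tmprss11a and Pate6 did so in every knockout array, so their knockout differences rest on dim signals too. Signal over background was not analysed here.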

Other observations

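With each array's lymphocyte score as a covariate, 50 genes were called in the knockout, 38 higher and 12 lower on estradiol, and all 18 genes called without it were among them. Among those called in addition were Oxtr (3.63, adjusted p 0.0172), Plod2, Sned1, Hpca, Spon2, Nfil3 and Hsd11b2, which inactivates glucocorticoids. On the lower side the additions included Ccl11, the eotaxin gene (-1.57, adjusted p 0.0154), Slc2a13, a transporter of inositol (-1.45, adjusted p 0.00107), Acaa1b, a thiolase of peroxisomes (-1.95), the nuclear receptor gene Rora (-0.84) and Rrm2, a subunit of ribonucleotide reductase (-0.78). Hsd11b2, Ccl11, Slc2a13, Acaa1b, Rora and Rrm2 were chosen for mention after their values were seen. The score was computed from the same arrays, so this count is a description of how the calls shift with lymphocyte content.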
